A study of Mus musculus with 16 samples.

Results

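The immunoglobulin heavy chain constant genes Ighm, Ighd, Ighg3, Ighg1, Ighg2b, Ighe and Igha, together with Ung, were followed in ATAC-seq peak lists of activated mouse B cells. ATAC-seq marks open chromatin by the insertion of sequencing adapters with the Tn5 transposase. Overlapping or touching peaks of 8 lists were joined into 16566 combined regions, and a region was assigned to a gene when its centre lay from 1000 bp upstream to 100 bp downstream of a start site of that gene or, counted apart, elsewhere in its body or within 10 kb. For the 8 genes, of 55536 in the annotation, 11 regions were found, 9 on chromosome 12 and 2 on chromosome 5. A region near 2 genes was counted once. Only 1 of the 11, at Ung, lay at a start site of these genes. Ighg3 had no region.

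The study asked how chromatin access in activated B cells depends on Brg1, the ATPase of the BAF chromatin remodelling complex, encoded by Smarca4. Splenic B cells of C57BL/6 mice were freed of CD43-bearing cells, and 50000 cells per library were used after culture with LPS at 10 µg/mL and IL-4 at 20 ng/mL. The labels give 72 hours of culture and the series design gives 96. All mice carried 1 copy of CD23-Cre, which deletes floxed alleles in mature B cells of the spleen. The 4 Brg1 fl/+ libraries therefore came from cells with 1 Smarca4 allele open to deletion. In the cells of the 4 Brg1 fl/fl libraries both alleles were open to it. How complete the deletion was is not shown here. No B cells of mice without a floxed Smarca4 allele were measured by ATAC-seq. The number of mice behind the libraries is not given in the sources used here. The p-values therefore measure the spread between libraries, which may be technical. The lists hold no coverage of the deleted part of Smarca4, so the genotype labels could not be checked against it.

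In a B cell the rearranged variable exon is first joined by splicing to Ighm and Ighd and gives IgM and IgD. During class switch recombination the variable exon is moved to a downstream constant gene by breaks in switch regions, long tracts of short repeats that lie ahead of each constant gene other than Ighd, and the DNA between the joined tracts is lost from that chromosome. AGCT is the word most often attacked by the switch machinery, uracil is then removed by the glycosylase Ung, and IL-4 acts through STAT6 to start transcription across the tracts of Ighg1 and Ighe.

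The sequences of the recurring regions are shown because they place the peaks on switch repeats. Each is 201 bases around the summit of 1 library in mm10, on the strand that reads with the gene. AGCT is in capitals for the constant genes and CG for Ung.

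Ighm region: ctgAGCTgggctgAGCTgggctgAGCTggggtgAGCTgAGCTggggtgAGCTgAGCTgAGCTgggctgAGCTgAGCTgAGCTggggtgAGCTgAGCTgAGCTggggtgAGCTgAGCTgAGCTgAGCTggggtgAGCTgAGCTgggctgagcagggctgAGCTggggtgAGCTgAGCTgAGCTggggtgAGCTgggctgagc

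Ighg1 region: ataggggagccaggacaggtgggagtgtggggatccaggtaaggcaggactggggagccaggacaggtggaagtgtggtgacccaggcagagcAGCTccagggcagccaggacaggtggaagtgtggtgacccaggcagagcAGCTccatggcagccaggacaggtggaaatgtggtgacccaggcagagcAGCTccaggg

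Ighg2b region: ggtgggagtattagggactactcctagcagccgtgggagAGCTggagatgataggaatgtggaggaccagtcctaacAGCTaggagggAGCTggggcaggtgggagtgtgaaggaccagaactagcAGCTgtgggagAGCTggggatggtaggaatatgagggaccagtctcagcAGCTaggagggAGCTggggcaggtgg

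Igha region: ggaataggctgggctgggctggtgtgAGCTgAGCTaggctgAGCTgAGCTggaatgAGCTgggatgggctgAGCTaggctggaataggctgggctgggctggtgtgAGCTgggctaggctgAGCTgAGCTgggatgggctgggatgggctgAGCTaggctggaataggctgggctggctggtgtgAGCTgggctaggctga

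Ung region: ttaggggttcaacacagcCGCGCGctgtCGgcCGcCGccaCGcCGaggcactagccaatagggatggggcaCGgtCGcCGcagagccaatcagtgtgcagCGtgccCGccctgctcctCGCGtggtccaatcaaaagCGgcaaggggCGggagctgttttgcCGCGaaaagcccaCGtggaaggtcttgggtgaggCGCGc

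The Ighm window, chr12:113424524-113424724 on the minus strand, held 25 AGCT words, each within the pentamer GAGCT, which alternates with GGGGT and GGGCT along the Ighm switch repeat. The Ighg1 window, chr12:113335396-113335596 on the minus strand, held 3 AGCT words in a longer repeat. The Ighg2b window, chr12:113311100-113311300, held 7 and the Igha window, chr12:113262733-113262933, held 11, both on the minus strand. The Ung window, chr5:114130720-114130920 on the plus strand, is a stretch with 22 CG pairs in place of a tandem repeat.

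AGCT words were counted over the constant gene locus in 376 bins of 500 bp, of which 39 held at least 10, against a median of 3. These dense bins stood ahead of every constant gene other than Ighd. They ran from 600 to 3099 bp upstream of Ighm, with up to 68 words in a bin, from 1897 to 6396 bp upstream of Ighg2b and from 1594 to 4593 bp upstream of Igha. Ahead of Ighg1 only 4 dense bins were found, scattered between 2807 and 7306 bp upstream, and the peak summits there fell in bins with fewer words. The tracts of Ighg3, from 2098 to 4597 bp upstream, and of Ighe, from 1582 to 3581 bp upstream, were as clear in the sequence and held no peak in any of the 8 lists. A list records only what the peak caller passed at the depth of its library, so a missing peak does not show closed chromatin.

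**Figure D1:**
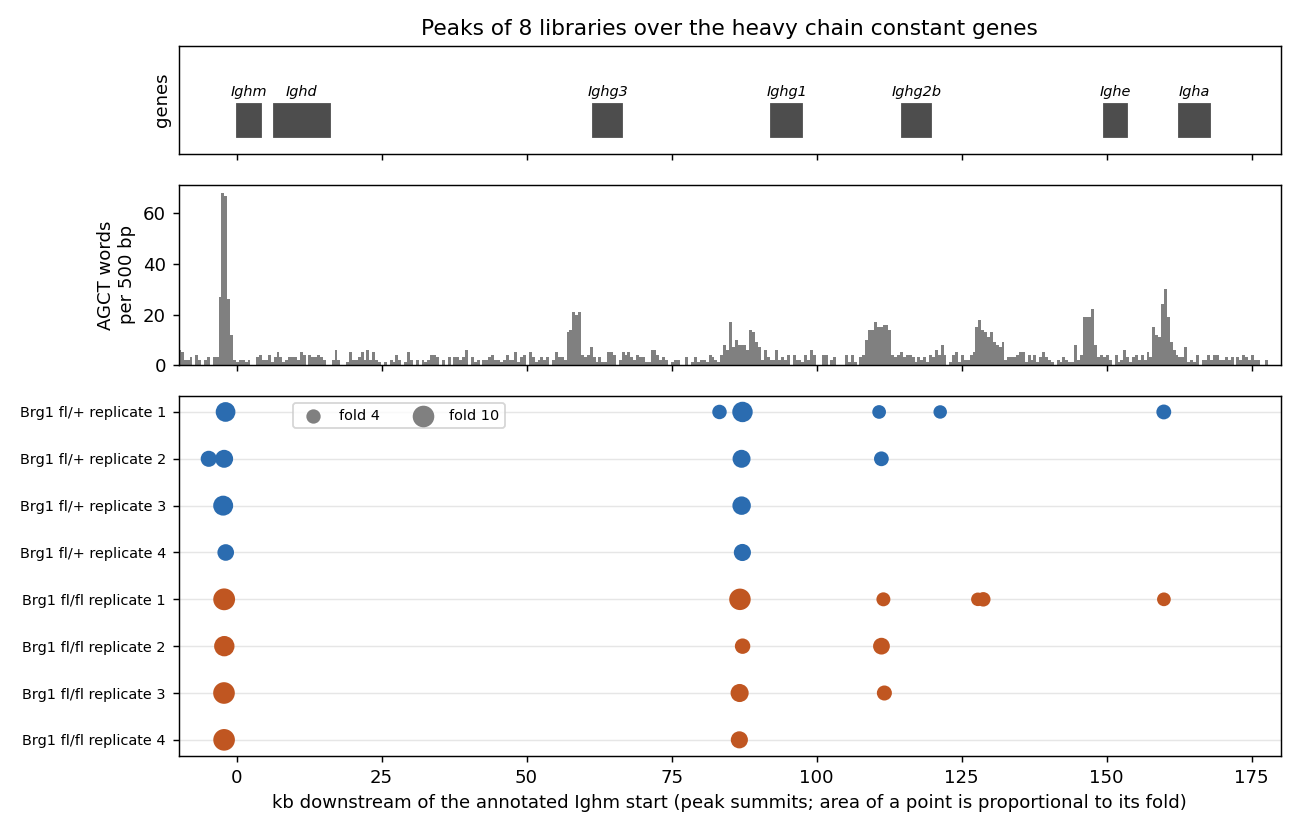
Top, the 7 constant genes. Middle, AGCT words per 500 bp. Bottom, the summit of each peak in the 8 libraries, with the area of a point proportional to its fold over local background. The horizontal axis is the distance in kb downstream of the annotated Ighm start. Peaks of all 8 libraries lie on the dense tract ahead of Ighm and within the span of the sparser tract ahead of Ighg1, and no point lies on the tracts of Ighg3 or Ighe.

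Of the 9 heavy chain regions, 6 had more AGCT words per kb than 95% of all combined regions, with 17.4 to 137 per kb against a median of 4.31 over 16512 regions. The Ighm region had the highest AGCT density of all regions, at 137 per kb. The same 6 were tandem repeats: at the best shift of up to 120 bp, 68.8% to 89.3% of their bases equalled the base 1 repeat further on, against 32.1% to 38.5% in the other 5 regions. The repeat length was 20 bp in the Ighm region, 4 times the pentamer, 49 bp in the Ighg1 region, 98 bp in the Ighg2b region and 80 bp in the Igha region.

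Repeats limit where a read can be placed. Of the 31-base words in the Ighm region 16.6% occurred once in the genome, and 1 word occurred 106 times. The share was 31.9% in the Ighg1 region, 2.43% in the Ighg2b region and 61.0% in the Igha region, whereas it was 100% in the Ung region. How the authors' alignment treated reads with several equal placements is not given in the sources used here. In the Ighm region 96.6% of bases were soft-masked as repeats in the reference, against a median of 5.73% over all regions.

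The Ighm region, chr12:113424312-113425255, had a peak in all 8 libraries. It lay in the switch tract 2053 bp upstream of Ighm, which encodes the constant part of IgM, and 8459 bp upstream of Ighd, and it overlapped the predicted microRNA gene Gm24022. The fold of the summit over local background was 8.18, 6.66, 8.41 and 5.60 in Brg1 fl/+ replicates 1, 2, 3 and 4. In Brg1 fl/fl replicates 1, 2, 3 and 4 it was 10.2, 8.79, 10.1 and 10.0. Every Brg1 fl/fl library was above every Brg1 fl/+ library, with means of 9.78 ± 0.662 and 7.21 ± 1.33 (SD, n = 4 each). Of all 4593 regions with a peak in every library, the folds separated in this direction in 1.09% and in the other in 12.4%.

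The folds were tested with limma after log2 transformation and centring of each library on its median over the 4593 regions. The Ighm region was higher in Brg1 fl/fl by 0.66 on the log2 scale (SE 0.16, 95% interval 0.33 to 0.98, limma, Benjamini-Hochberg adjusted p = 0.0162). An exact permutation of the genotypes over libraries, in all 70 ways, gave p = 0.0286, the smallest possible with 4 against 4. Over all tested regions 3.31% were called higher and 2.16% lower, and the difference at Ighm was exceeded by 17 regions. The median fold of the tested regions ranged from 10.4 to 13.6 in Brg1 fl/+ libraries and from 9.26 to 11.2 in Brg1 fl/fl libraries, and without centring the median difference over all regions was -0.17. The Ighm difference was then 0.46 and the call was lost (limma, adjusted p = 0.127).

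The call also rested on single libraries. Without Brg1 fl/+ replicate 2 the difference was 0.59 (limma, adjusted p = 0.0585) and without Brg1 fl/+ replicate 4 it was 0.56 (limma, adjusted p = 0.0515). Over 15 other settings the difference stayed above 0, from 0.46 to 1.12, and passed the threshold in 11 (limma, adjusted p from 2.5e-05 to 0.215).

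Regions rich in soft-masked bases moved in the same direction as a group. Among the 127 tested regions with more than 50% soft-masked bases, a group defined after the values were seen, the median difference was 0.34, 26.8% were called higher and 0 were called lower. At most 50% of bases were soft-masked in 4455 regions, where the median was 0.02 and 2.60% were called higher. The Ighm region stood at the 92.1st percentile of the 127, with 10 of them above it. The Ighg1 region, also a tandem repeat, had 12.0% soft-masked bases and lay outside this group. Its difference was 0.10 (limma, adjusted p = 0.767). The part of repeat content in the Ighm difference was not tested, and neither was that of DNA lost in class switching.

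**Figure D2:**
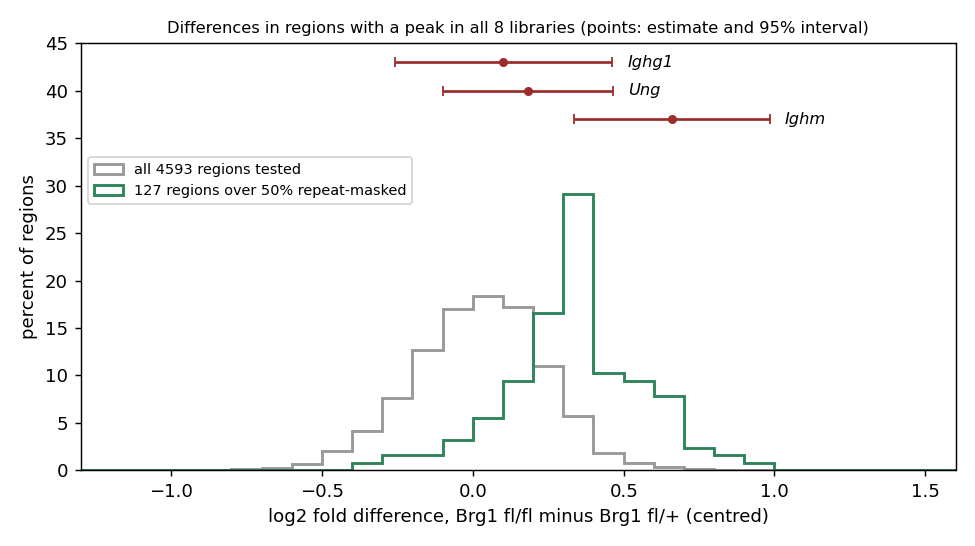
Percent of regions by the log2 fold difference, Brg1 fl/fl minus Brg1 fl/+, after centring, for all 4593 tested regions and for the 127 with more than 50% soft-masked bases. Points with bars are the estimate and 95% interval of the Ighm, Ighg1 and Ung regions. The interval of Ighm, 0.33 to 0.98, lies above 0. The regions with more than 50% soft-masked bases are shifted to the right, with a median of 0.34.

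Depth behind the Ighm fold was recovered from the fold and p of each peak. The summit held 66, 26, 18 and 14 fragments in Brg1 fl/+ replicates 1 to 4 and 60, 31, 53 and 61 in Brg1 fl/fl replicates 1 to 4. The ranges overlapped through Brg1 fl/+ replicate 1, the library with the most fragments at this summit. Divided by the lowest background of each library, the summit stood at 50.8, 32.2, 33.3 and 19.1 in Brg1 fl/+ and at 35.8, 39.6, 36.3 and 44.2 in Brg1 fl/fl, which overlap as well. For limma, 1 was added to the fragments and to the background before the log2 ratio was taken. Its differences are therefore not those of the ratios printed here. Without centring it gave a difference of 0.58 that was not called (limma, adjusted p = 0.215). With centring it gave one of 1.12 that was called (limma, adjusted p = 2.5e-05). The local background was itself raised, to between 2.29 and 5.53 times the lowest in the Brg1 fl/+ libraries and between 2.96 and 3.75 times in the others.

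The Ighg1 region, chr12:113335202-113336754, lay 5455 bp upstream of Ighg1, the constant gene of IgG1, to which LPS with IL-4 directs switching. It had a peak in all 8 libraries. The fold was 8.87, 6.68, 7.08 and 6.00 in Brg1 fl/+ replicates 1 to 4 and 9.90, 4.74, 6.77 and 5.98 in Brg1 fl/fl replicates 1 to 4. In both genotypes replicate 1 was highest, and the ranges overlapped in full, with means of 7.16 ± 1.23 and 6.85 ± 2.20 (SD, n = 4 each). The difference was 0.10 on the log2 scale (SE 0.18, 95% interval -0.26 to 0.46, limma, adjusted p = 0.767, exact permutation p = 0.686).

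These Ighg1 summits were shallow, with 38, 17, 11 and 11 fragments in Brg1 fl/+ and 35, 8, 20 and 15 in Brg1 fl/fl. The interval leaves room for a change of up to 0.46 on the log2 scale, and the sign turned without centring, to -0.10, and without Brg1 fl/fl replicate 1, to -0.07. GGAAGT, the core letters of an ETS site, was found 15 times in the region on the strand of the gene, mostly at multiples of the 49 bp repeat. Within 100 bp of the summit of the peak with the smallest p, on either strand, the Ighg1 region held it 1 time. On that measure 21.3% of all regions held it at least 1 time.

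**Figure D3:**
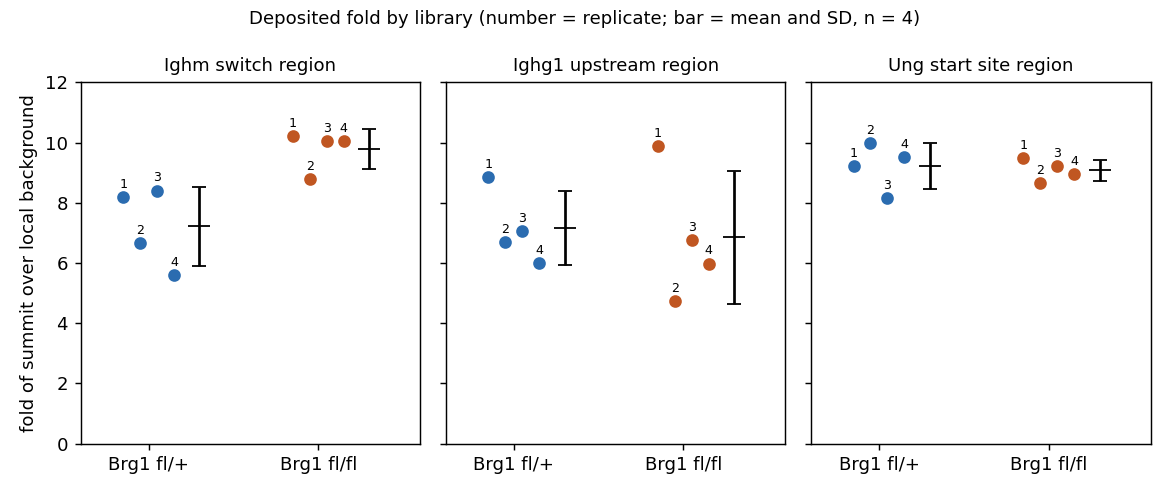
Fold of the summit over local background in each library for the Ighm, Ighg1 and Ung regions, with the replicate number at each point and the mean and SD of 4 libraries at the side. The genotypes separate at Ighm, at 5.60 to 8.41 against 8.79 to 10.2, and overlap at Ighg1 and Ung.

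The peaks at Ighm covered the same stretch in both genotypes, with widths from 719 to 886 bp in Brg1 fl/+ libraries and from 755 to 924 bp in Brg1 fl/fl libraries. At Ighg1 widths ran from 709 to 1408 bp in Brg1 fl/+ libraries and from 598 to 1413 bp in Brg1 fl/fl libraries, and the widest of each genotype was in its replicate 1.

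**Figure D4:**
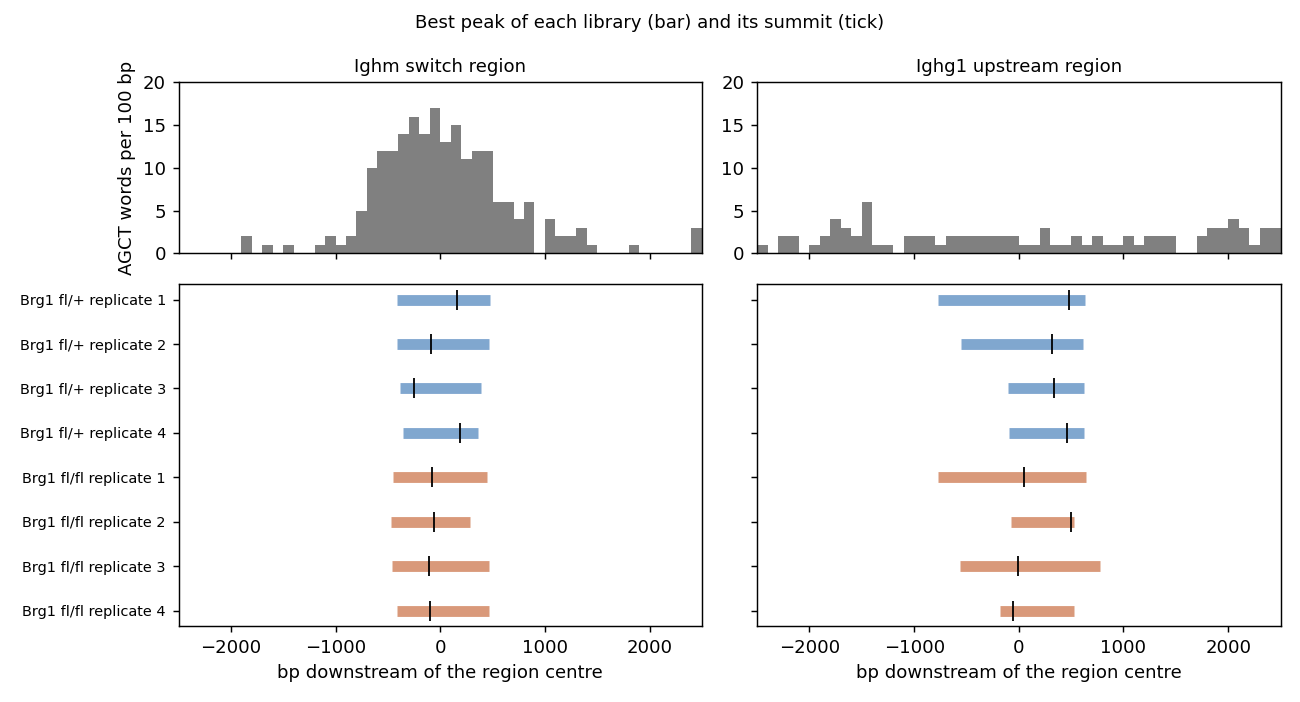
Top, AGCT words per 100 bp around the centre of the Ighm and Ighg1 regions. Bottom, the best peak of each library as a bar and its summit as a tick, against distance from the region centre in bp, positive downstream. At Ighm all 8 bars lie on the densest part of the tract, and at Ighg1 AGCT words are fewer along the bars than at Ighm.

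The Ighg2b region, chr12:113310920-113312224, lay 3639 bp upstream of Ighg2b, which encodes the constant part of IgG2b. It had a peak in Brg1 fl/+ replicates 1 and 2, with folds of 3.61 and 4.28, and in Brg1 fl/fl replicates 1, 2 and 3, with folds of 3.78, 5.72 and 4.47. The summits held 7 to 11 fragments and the peaks stood near the end of each list ordered by p, at the 82.2nd to 99.1st percent of its length. The peaks were 307 and 434 bp wide in Brg1 fl/+ and 964, 826 and 739 bp wide in Brg1 fl/fl. Detection did not separate the genotypes (exact permutation test, p = 1). When peaks had to cover 50% of the region it was found in 0 Brg1 fl/+ and 3 Brg1 fl/fl libraries. That contrast was not tested. At this setting 26.6% of all combined regions were found in more Brg1 fl/fl libraries and 47.5% in fewer. The Brg1 fl/+ peaks did not overlap each other, and without Brg1 fl/fl replicate 1 the region split in 2. The stretch to be covered therefore rests on that library. The repeat words of this region were the least unique of the 11.

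The Igha region, chr12:113262581-113262923, lay 2516 bp upstream of Igha, the constant gene of IgA, and 6508 bp downstream of the end of Ighe, the constant gene of IgE. It had a peak in replicate 1 of each genotype, with a fold of 4.35 from 11 fragments in Brg1 fl/+ and 3.62 from 12 in Brg1 fl/fl. Brg1 fl/fl replicate 1 alone had peaks at chr12:113293865-113294264 and chr12:113294904-113295159, 8901 and 7934 bp downstream of Ighg2b, with folds of 4.10 and 3.52. These also lay on AGCT-dense repeats, with 25.0 and 31.3 words per kb. They stand ahead of another constant gene that is not among the 8.

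The other 3 heavy chain regions lay off the repeats and each had a peak in 1 Brg1 fl/+ library and in no Brg1 fl/fl library. One, chr12:113301321-113301620, stood 1495 bp downstream of Ighg2b with a fold of 3.48 from 7 fragments in replicate 1. Another, chr12:113339404-113339614, stood 8986 bp upstream of Ighg1, beyond its switch tract, with a fold of 4.10 from 16 fragments in replicate 1. The last, chr12:113427392-113427602, stood 4767 bp upstream of Ighm, beyond its switch tract, with a fold of 5.22 from 18 fragments in replicate 2. The sequences of the latter pair are printed whole, on the minus strand, because all their 31-base words were unique and they hold letters of known B cell factor sites. They were chosen after their values were seen. Capitals mark TTC and GAA with any 4 bases between, the letters of a STAT6 site, in both and ATTTGCAT, the octamer bound by Oct factors, in the second.

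far Ighg1 region: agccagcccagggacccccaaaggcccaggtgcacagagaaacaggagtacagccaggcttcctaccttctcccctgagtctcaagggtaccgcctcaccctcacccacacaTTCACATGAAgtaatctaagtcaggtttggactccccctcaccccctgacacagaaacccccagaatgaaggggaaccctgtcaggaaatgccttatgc

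far Ighm region: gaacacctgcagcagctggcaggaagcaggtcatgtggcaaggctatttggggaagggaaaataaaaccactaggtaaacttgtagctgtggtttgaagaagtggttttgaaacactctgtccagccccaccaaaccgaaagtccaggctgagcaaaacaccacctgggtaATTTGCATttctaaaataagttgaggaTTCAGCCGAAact

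Searched on both strands within 100 bp of the summit, the STAT6-type letters were found in 3.18% of all regions and ATTTGCAT in 2.00%. The STAT6-type letters ahead of Ighg1 and the octamer ahead of Ighm lay inside that distance. The STAT6-type letters ahead of Ighm lay outside it. With 1 library of 8, none of the 3 regions can separate the genotypes (exact permutation test, p = 1 for each).

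The Ung region, chr5:114130632-114131377, lay at the start of Ung, the uracil glycosylase of the switch reaction, and had a peak in all 8 libraries. Its fold was 9.23, 9.98, 8.17 and 9.53 in Brg1 fl/+ replicates 1 to 4 and 9.47, 8.65, 9.22 and 8.96 in Brg1 fl/fl replicates 1 to 4. The ranges overlapped, with means of 9.22 ± 0.769 and 9.07 ± 0.353 (SD, n = 4 each). Summits held 65, 44, 21 and 29 fragments in Brg1 fl/+ and 51, 23, 40 and 43 in Brg1 fl/fl.

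After centring the 4 Brg1 fl/fl values at Ung were all above the Brg1 fl/+ values, which was so for 8.64% of tested regions, with 4.64% separated the other way. The difference was 0.18 (SE 0.14, 95% interval -0.10 to 0.46) and did not pass the threshold (limma, adjusted p = 0.441), although the exact permutation test on the centred values gave its smallest p, 0.0286. Without centring the difference was -0.02 (limma, adjusted p = 0.95). The sign of the change at Ung therefore follows the scaling. A second region near Ung, chr5:114128037-114128291, 2222 bp upstream and at the start of the neighbour Alkbh2, had a peak in Brg1 fl/+ replicate 2 alone, with a fold of 5.15 from 22 fragments.

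Of the 11 regions, 4 were found in fewer libraries of Brg1 fl/fl than of Brg1 fl/+, 3 were found in more, and 4 were found in as many of each. Over all combined regions the share found in fewer was 47.2% and in more 16.7%. A peak in all 8 libraries was found for 3 of the 11, against 27.7% of all regions, and in 1 library for 6 of the 11, against 28.4%. With the 6271 best peaks of each library, 4 of the 11 were left, 0 found in fewer Brg1 fl/fl libraries and 3 in more, and of the 9006 combined regions at this setting 23.2% were found in fewer and 24.8% in more.

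The libraries held 6271 to 14614 peaks, and their background, recovered from the peaks, was 2.76 to 6.89 fragments per kb. Brg1 fl/+ replicates 1 to 4 held 7, 6, 3 and 3 of the 11 regions and Brg1 fl/fl replicates 1 to 4 held 7, 4, 4 and 3. The deepest library of each genotype, its replicate 1, held the most. Of 7 B cell marker promoters only Ms4a1 and Pax5 had a peak in all 8 libraries, Ebf1 had one in 6, Cd79a in 1, and Cd79b, Cd22 and Blk in 0. None of 5 myeloid, 2 NK and 2 erythroid marker promoters had a peak. Of 5 T cell marker promoters 4 had none, and Cd247 had a peak in 1 Brg1 fl/+ and 4 Brg1 fl/fl libraries (exact permutation test, p = 0.143).

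**Figure D5:**
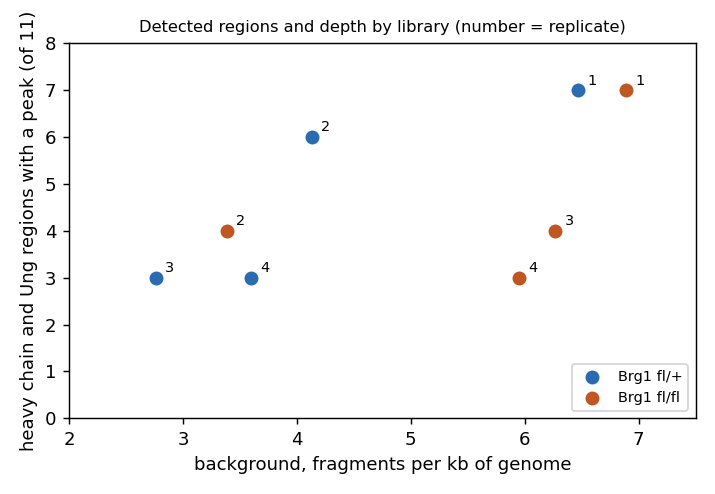
Number of the 11 heavy chain and Ung regions with a peak in each library against the background of the library in fragments per kb, which measures its depth. Replicate 1 of each genotype, with 6.47 and 6.89 fragments per kb, holds 7 regions, and Brg1 fl/fl replicate 4, with 5.95, holds 3.

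The promoters of 40 other genes of class switching gave context for Ung. A peak was found in all 8 libraries for 19, in 1 to 7 for 16 and in none for 5. It was found in fewer Brg1 fl/fl libraries for 10 of the 40 and in more for 4, beside 47.2% and 16.7% of all combined regions. The 40 are promoters and include the 5 with no peak, whereas every combined region had one, so these shares are not alike. Over these 19 the median log2 difference was 0.05 and the range -0.28 to 0.28, beside a median of 0.03 over all 4593 tested regions. Of 5 base excision genes that act with or beside Ung, 3 had a peak in all 8 libraries and could be tested, and none was called by limma. Apex1 differed by -0.0026 (limma, adjusted p = 0.994), Tdg by 0.10 (limma, adjusted p = 0.651) and Mbd4 by -0.24 (limma, adjusted p = 0.157). At Mbd4 the folds were 15.2, 17.3, 13.3 and 16.7 in Brg1 fl/+ replicates 1 to 4 and 12.3, 10.2, 11.6 and 11.7 in Brg1 fl/fl replicates 1 to 4. They do not overlap, and the exact permutation test on the centred values gave its smallest p, 0.0286. Of all 4593 tested regions, the folds separated in this direction in 12.4% and the centred values in 4.64%. Smug1 had a peak in 2 Brg1 fl/+ libraries and 0 Brg1 fl/fl libraries, and Apex2 in 1 and 0.

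Among genes for germline transcription of the tracts, none of 6 promoters had a peak in all 8 libraries. Batf, a partner of Irf4 in activated B cells, had a promoter peak at chr12:85686412-85686881 with folds of 6.31, 8.80, 9.49 and 6.73 in Brg1 fl/+ replicates 1 to 4 and none in Brg1 fl/fl (exact permutation test, p = 0.0286). A peak in 4 against 0 libraries was seen in 0.404% of all combined regions and the reverse in 0.169%. By p this peak ranked 10557.5, 6691, 3550.5 and 6366.5 in the 4 lists, so with 6271 peaks per library it would be left in replicate 3 alone. Exosc3, an RNA exosome subunit, had a promoter peak in 3 Brg1 fl/+ libraries and 0 Brg1 fl/fl libraries (exact permutation test, p = 0.143). Stat6 had one in 2 and 1, and Irf4 in 2 and 2.

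Regions elsewhere whose centred log2 folds followed those of the Ighm and Ung regions most closely over the 8 libraries were sought among 3980 regions at gene starts with a peak in every library. The Ighm region was placed in this class by its overlap with Gm24022. Its closest were at Ewsr1 and Rhbdd3 (Pearson r = 0.975), Erg28 and Ttll5 (r = 0.972), and Rps23 (r = 0.964). Those of Ung were at Tedc1 (r = 0.976), Fam76a (r = 0.975) and Myh9 (r = 0.97). These are the highest of many correlations over 8 libraries that share their centring, and are given as a description.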

How the data were processed

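ATAC-seq was analysed in 4 Brg1 fl/+ and 4 Brg1 fl/fl libraries, grouped by the sample labels. The other 8 libraries of the series, RNA-seq, were not analysed here. Bowtie2 alignment to mm10 and per-library MACS2 peak calling were done by the authors, per the submitters' processing notes, with versions and options not given in the sources used here. The deposited lists hold for each peak the fold of its summit over local background (a ratio). They also hold, as made by the authors, its p-value and q-value on the −log10 scale. No read counts were used, so the fold of the best peak in a region was tested.

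Peaks were joined and assigned with GENCODE M21. Log2 folds of the 4593 regions with a peak in all 8 libraries were centred on the library median and tested with limma 3.58.1 (trended eBayes, two-sided, Benjamini-Hochberg, threshold 0.05) in R 4.3.3. Detection was tested with the exact two-sided permutation test. Fragments at the summit were solved as whole numbers from fold and p. For 99.8% of peaks the −log10 p computed back from them lay within 0.002 of the deposited one. Fragments are PCR products without molecular identifiers. Simulated data for 4593 regions, 200 of them changed by 1 on the log2 scale, gave 97.5% recovered and 8 false calls among the unchanged regions. The noise was drawn independently for each library. A change of 1 is larger than the 0.66, 0.10 and 0.18 at Ighm, Ighg1 and Ung, and recovery at those sizes was not simulated. Every region of the 8 genes was named, and sequence was taken at the summits of recurring regions. The genes, lists and tests were chosen with earlier results of these data known. From the class switch and marker lists 1 gene each is not reported here, and counts leave them out. Pairs of libraries with the same number did not deviate together (r from -0.09 to 0.01), so the numbers were not taken as pairs. The spread of every Brg1 fl/fl pair was below sampling noise, with ratios of 0.8 to 0.862. The ratio was 0.756 to 0.884 for Brg1 fl/+ 1 with 2 and 3 with 4, and 0.881 to 1.19 for other Brg1 fl/+ pairs. The lists differed in length and depth, which does not show that the libraries are independent. Each library was counted as 1, and averaging the pairs was an alternative. Python 3.11.15, pandas 2.3.3, scipy 1.17.1, pysam 0.24.0 and samtools 1.23.1 were used.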

Additional observations from a re-analysis of the deposited data

Results flagged for a closer look

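The fold at the Ighm region in Brg1 fl/fl replicate 2, 8.79, lay apart from the other 3 Brg1 fl/fl libraries, whose folds were 10.0 to 10.2. Its gap took up 0.868 of the range of the group, above the 95% critical value of Dixon's test for 4 libraries. It was 1 of 32 groups of values examined in this way, and chance marks about 1 in 20. This library also had the lowest background of the Brg1 fl/fl libraries, 3.39 fragments per kb, and the lowest median fold, 9.26. After centring its value, -0.08, was the highest of the 4.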

How the results depend on the processing

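The number of regions fell from 11 to 6 when peaks needed a −log10 q of 5 or more and to 4 when every list was shortened to the best 6271 peaks, which left 0 with a peak in fewer Brg1 fl/fl libraries. The number with a peak in more was 1 with the stricter q and 5 when peaks had to cover 50% of the region. Without 1 library at a time, the share of the libraries of each genotype with a peak was compared in place of the number. A region with a peak in 1 library of each genotype could therefore count as fewer or more. The number in more was then 1 to 4, the number in fewer was 2 to 6, and regions numbered 9 to 11. Of all combined regions at these settings, 35.1% to 54.7% were in fewer and 14.8% to 30.5% in more. The number in more was lowest without Brg1 fl/fl replicate 1, the number in fewer without Brg1 fl/+ replicate 1, and the number of regions without Brg1 fl/+ replicate 1 or 2. Over all combined regions the shares in fewer and in more were 23.2% and 24.8% with the shortened lists, 47.0% and 13.1% with the stricter q, and 47.5% and 26.6% with the cover of 50%.

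The Ighm difference was 0.46 with no centring. It was 0.58 for summit fragments over the lowest background, 1 added to each, with no centring, a setting added after the data were seen. Neither passed. Leaving out libraries gave 0.56 to 0.83. At Ighg1 those settings gave -0.10 and -0.31, and leaving out libraries gave -0.067 to 0.21. At Ung they gave -0.021 and -0.28, and leaving out libraries gave 0.13 to 0.22. Why scaling moved these values was not tested. Higher calls numbered 7 with no centring, 422 for summit fragments over the lowest background, 1 for the same with no centring, 42 with libraries averaged in pairs, and 48 to 289 without 1 library. Lower calls numbered 155, 162, 27 and 31 in these settings, and 30 to 129 without 1 library. The replicate block left Ighm at 0.66 (limma, adjusted p = 0.0143) and gave 122 higher and 93 lower calls in all. Ighg1 and Ung were not called with it either. Under the stricter q the Ighg1 region had no peak in 1 library and could not be fitted.

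Depth limits what a missing peak shows, since most of the 11 regions rested on 7 to 22 fragments in 1 library.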
